A study of Homo sapiens with 2 samples.

Results

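The genes described here are the nuclear-encoded subunits of the last steps of mitochondrial respiration, 39 of the 19994 protein-coding genes in a ribosome profiling table. They were chosen by gene symbol, by a rule that uses no measured value. Complex III contributes 9 genes, complex IV 11 and complex V 17, and the electron carrier CYCS and the ATP synthase inhibitor ATP5IF1 complete the list. Symbols alone identify them, since ribosome footprints say nothing of assembly into a complex.

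Ribosome profiling counts the RNA fragments that translating ribosomes shield from nuclease. The 2 libraries came from wild-type HEK293T, a transformed human embryonic kidney line. Both cultures carried the TetRS plasmid, which encodes a synthetase described as chPylRSIPYE and holds 12 U6-driven copies of the tRNA CM15CGA, and both were given TetBu. The library RiboW also received pEGFP-mCherry-T2A-EGFP-151TCG, a dual fluorescent reporter, and RiboWo did not. Both were collected after 30 h of expression, with 1 min of cycloheximide at 0.1 mg/mL. Each group had 1 library, so no test across replicates exists and no p-value is given. Every difference is between these libraries, and the reporter cannot be told apart from any other difference between the dishes.

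The table held 2519301 counts with the reporter and 3151403 without it, of which 346240 and 307768 lay in coding genes. Mitochondrial rRNA made up 44.8% of all counts with the reporter and 45.4% without it. The microRNA genes made up 12.5% and 30.4%, so the libraries differed in composition. Counts per gene do not show fragment length or reading frame, so a count is not shown to be a ribosome footprint. The reporter row had 271843 counts against 399, in the direction of the labels, while TetRS had 30286 against 59723. All 8 genes fixed as HEK293 markers had counts (376 against 271 in sum). Leukocyte markers summed to 5 against 20 over 7 genes, with PTPRC and CD3E at 0. Fibroblast markers summed to 18 against 55 over 6 genes. Blood and serum markers summed to 0 against 16 over 4 genes, with HBA1 and HBA2 at 0 and ALB at 13 without the reporter. The part of these markers in the results was not tested.

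Complex III takes electrons from ubiquinol and hands them to cytochrome c. Complex IV, cytochrome c oxidase, passes them to oxygen, and complex V uses the proton gradient that results to make ATP. Each is built from products of both genomes: mitochondrial DNA encodes a few hydrophobic core subunits, and the nucleus encodes the rest, which are translated in the cytosol and imported. In cultured lines such as HEK293T, these nuclear genes are expressed as housekeeping genes, and the nuclear respiratory factor NRF1 and the ETS family factor GABP are known activators of many of them.

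The promoters of the genes were searched for activator motifs. Each complex had few genes with a promoter, and differences between the complexes were not tested. RefSeq (GRCh38.p14) gave promoters for 31 of the 39 genes, each from 250 bases before the start site to 50 after it. The NRF1 motif, searched on both strands as GCGCA, any base and GCGC, lay in 4 of 7 complex III genes, 0 of 9 complex IV genes and 4 of 13 complex V genes. It lay in 5.78% of all 35116 promoters and in 9.67% of the 15843 coding genes listed. The first match in each of these 8 genes is shown, since they all belong to complexes III and V (UQCR11 and ATP5ME each held 2), and it is printed on the strand of the gene with the motif or its reverse complement in capitals.
UQCRC1 (chr3:48609674-48609703, minus strand): gtacggtactGCGCCTGCGCcgcgaccgcc
UQCRFS1 (chr19:29213163-29213192, minus strand): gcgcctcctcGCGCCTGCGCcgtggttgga
UQCR10 (chr22:29767351-29767380, plus strand): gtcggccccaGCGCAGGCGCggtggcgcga
UQCR11 (chr19:1605472-1605501, minus strand): ccctccccgcGCGCGTGCGCgccgcggccg
ATP5F1C (chr10:7788145-7788174, plus strand): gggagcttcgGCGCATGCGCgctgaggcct
ATP5PO (chr21:33915809-33915838, minus strand): acgccaacgcGCGCGTGCGCccttgcgcgt
ATP5ME (chr4:674476-674505, minus strand): cgcagcaactGCGCAGGCGCagccgatgat
ATP5MJ (chr14:103921527-103921556, minus strand): tcccctgcgcGCGCCTGCGCgctcggtgac

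In 7 of these 8 genes the first match began between positions -47 and -8, counted from the start site, and in ATP5ME it began at -219. These genes included both ATP5MJ, called lower below, and ATP5F1C, above the coding median. COX6C, called higher below, and ATP5MC3, also above the coding median, had no promoter listed and were not searched. The ETS motif CCGGAAG, searched on both strands, lay in 3 of 7, 5 of 9 and 6 of 13 genes of complexes III, IV and V, against 10.3% of all promoters and 16.5% of coding genes. The first match in 4 of the 5 complex IV genes is shown, since that complex held this motif and no NRF1 match.
COX5B (chr2:97646014-97646043, plus strand): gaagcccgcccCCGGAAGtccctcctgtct
COX6A1 (chr12:120438086-120438115, plus strand): ttccacttccgCTTCCGGcgctgcggcagt
COX6B1 (chr19:35648300-35648329, plus strand): acctctctcagCTTCCGGctggtagtagtt
COX8A (chr11:63974591-63974620, plus strand): cagctccagaaCTTCCGGccagcgcagcca

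COX5B held 2 ETS matches, and the complex IV gene not shown is COX4I1, whose match lay just after the start site. A YY1 motif, searched on both strands as AA, any base, ATGGCG, any base and C, lay in UQCRC1, UQCRFS1 and UQCR10 and in no gene of complexes IV or V (3.79% of coding genes), and these 3 genes also held the NRF1 motif. The other motifs searched were the TATA box TATAAA (3 of the 31 genes, 12.4% of coding genes), the CRE TGACGTCA (2, 3.00%), the GC box GGGCGG (20, 64.3%) and CCAAT (15, 42.1%). A match describes letters in a window and not a bound site, and the motifs were chosen after the promoters had been seen. The NRF1 gene itself had 12 counts in RiboW and 9 in RiboWo, and GABPA had 7 and 6.

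All 39 genes had counts, with sums over both libraries from 8 (UQCR10) to 440 (COX8A) and a median of 83. Together they held 2811 counts with the reporter, or 0.906% of nuclear-encoded coding counts (exact Clopper-Pearson 95% interval 0.873 to 0.940%). Without the reporter they held 2078 counts, or 0.778% (0.745 to 0.812%). These intervals do not overlap. Intervals here and below cover counting error only and treat reads as independent molecules, which PCR copies are not.

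Levels can be compared between genes only per length, and the deposited RPKM values serve for this. COX8A, a small membrane subunit of complex IV with a listed length of 494 bases, had the highest RPKM, 169 with the reporter and 147 without it. ATP5F1B, the catalytic beta subunit of the ATP synthase head, followed at 32.5 and 25.4. With the reporter, ATP5IF1 (28.5, against 12.5 without it) and COX5B (27.7 against 13.3) came next. The lowest RPKM with the reporter were those of ATP5MC1 (0.532 and 1.38), ATP5MG (0.791 and 1.69) and the Rieske iron-sulfur protein gene UQCRFS1 (1.13 and 0.821).

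By complex, the median RPKM was 3.15 with and 2.79 without the reporter for complex III, 15.8 and 11.0 for complex IV, and 4.98 and 3.99 for complex V. Complex IV was the highest of the 3 in both libraries. The values of single genes overlapped widely between complexes. Listed lengths differ in kind: those of UQCRB (12600 bases) and UQCRQ (2218) equal the whole locus, introns included, so their RPKM are too low against the rest. ATP5F1A (10908 bases) and ATP5MG (8358) were also listed as long, against a median of 2308 bases over the 39 genes. Whether their lengths take in introns was not checked, so their low RPKM are uncertain too. The median of complex III is the RPKM of UQCRB itself, and that of complex V with the reporter is the RPKM of ATP5F1A. These medians therefore give no order between complexes III and V. Across the 39 genes the RPKM of the libraries had a Spearman correlation of 0.92, a description in which both libraries share the same lengths.

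**Figure D1:**
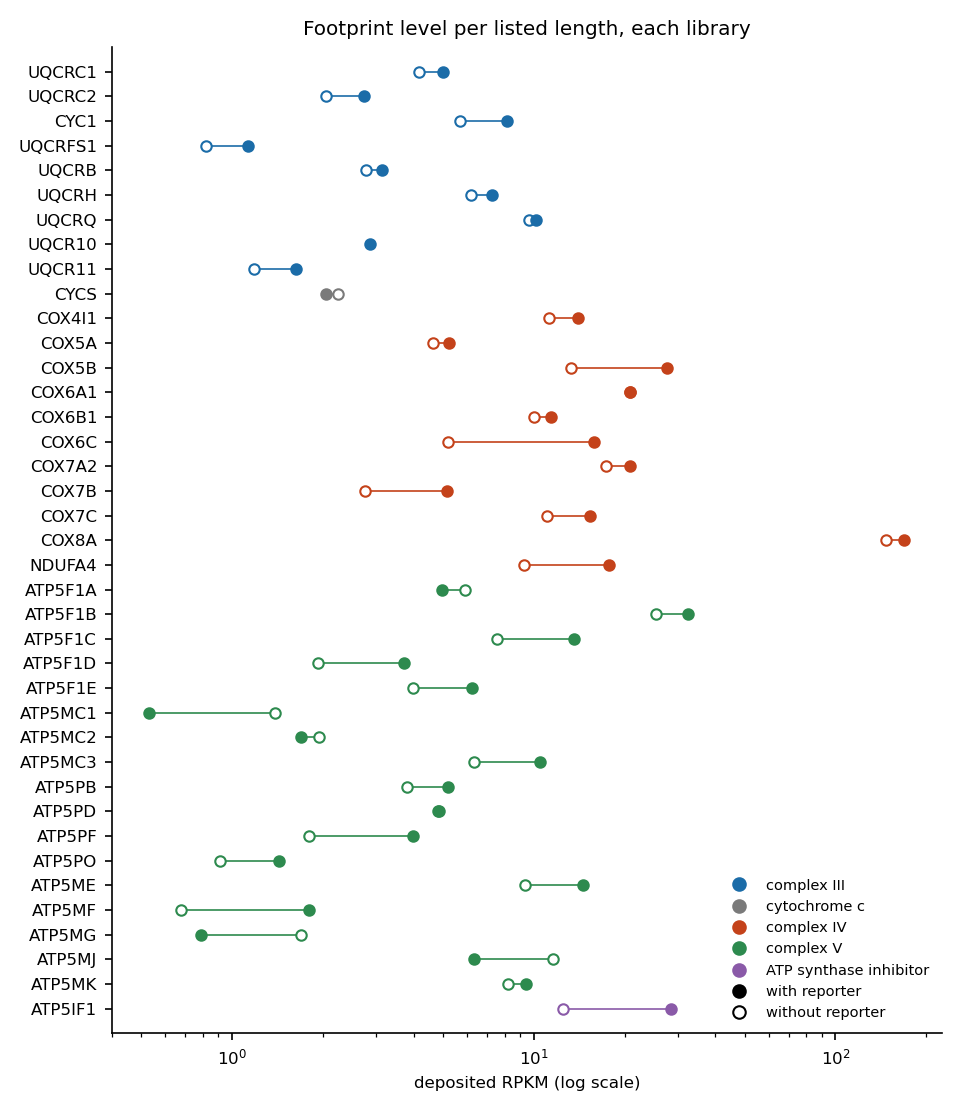
Deposited RPKM of each of the 39 genes on a log axis, filled circles with and open circles without the reporter, coloured by complex. COX8A stands alone at 169 and 147, and 32 genes were higher and 7 lower with the reporter; UQCR10, with 0 counts without the reporter, has no open circle.

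RPKM was higher with the reporter for 32 genes and lower for 7, but the median coding gene was itself higher by 0.19 on the log2 RPKM scale. Differences below are therefore log2 ratios of counts, with over without the reporter, minus the median of the 1060 coding genes whose counts summed to 100 or more. These genes are called measured, and 17 of the 39 are among them. A gene was called higher or lower where this relative ratio reached 2-fold and its exact 95% interval excluded 0. Of all 1060 measured coding genes, 1.79% were called higher and 1.32% lower.

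Of the 17 measured genes, 1 was called higher, COX6C, and 1 lower, ATP5MJ. Without the fold threshold, 6 of 17 had an interval above the coding median, against 17.8% of all measured coding genes. An interval below it was found for 2 of 17, against 16.1%. The 6 were COX5B, COX6C, NDUFA4, ATP5F1C, ATP5MC3 and ATP5IF1, and the 2 were ATP5F1A and ATP5MJ. The median relative ratio of the 17 genes was 0.17, where that of all measured coding genes is 0 by construction, and their SD was 0.59 against 0.46. Calls over all genes depend on the zero: 19 higher and 14 lower here, 30 and 6 with TMM scaling, 46 and 6 with DESeq2 size factors, and 190 and 0 with total counts.

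**Figure D2:**
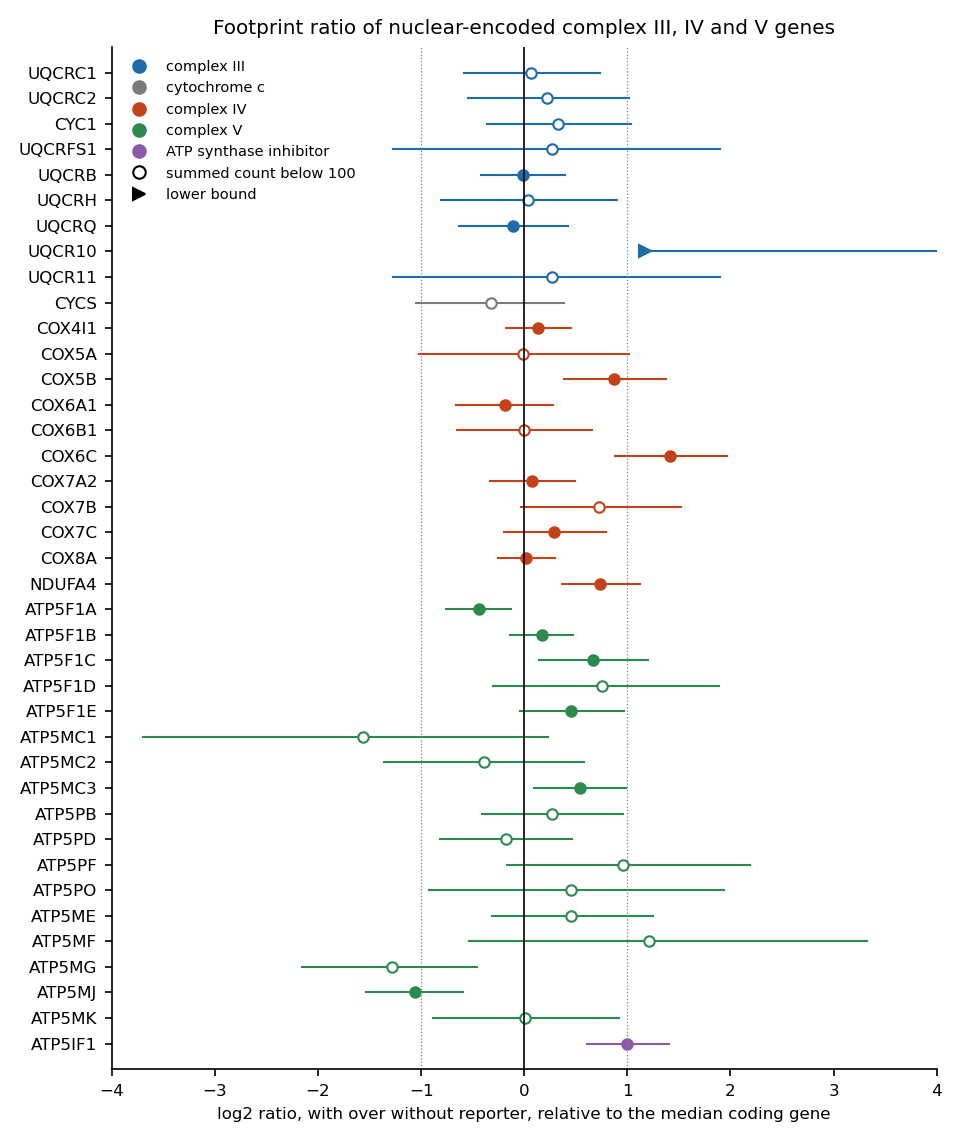
Relative log2 ratio of each gene (points, with exact 95% intervals for counting error as bars), with the reporter over without it, where 0 is the median measured coding gene and dotted lines mark 2-fold. Filled points have a summed count of at least 100; COX6C lies furthest right among them and ATP5MJ furthest left, and the arrow for UQCR10 starts at 2.25-fold, its ratio against 3 counts. The exact interval of UQCR10 starts lower, at a log2 ratio of 0.53.

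The measured complex III genes had values close to the coding median. They were UQCRB, a ubiquinone-binding subunit, with 114 counts against 97, and the small subunit UQCRQ, with 65 against 59, the reporter library first here and below. Their relative ratios were -0.01 (-0.41 to 0.39) and -0.10 (-0.64 to 0.43), so neither differed beyond counting error. The core proteins UQCRC1 and UQCRC2 had 46 counts against 37 and 36 against 26. CYC1, which encodes cytochrome c1, had 46 against 31 (0.33, -0.36 to 1.03).

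UQCRFS1, UQCR11 and the hinge protein gene UQCRH had 10 against 7, 10 against 7 and 28 against 23. UQCR10, a small subunit beside cytochrome c1, had 8 counts against 0. Against 3 counts set in place of the 0, 8 counts are 2.25-fold higher relative to the median coding gene. The exact interval of the relative ratio, which also takes in the counting error of the 8, starts lower, at 0.53 on the log2 scale. The gene passed no minimum. None of the 6 complex III genes with a summed count of 20 or more had an interval apart from the coding median. Over all coding genes at this minimum, 8.91% had an interval above it and 12.7% below it, so 0 of 6 is little to go by. CYCS, the carrier that links complexes III and IV and a trigger of apoptosis once released, had 34 against 36 (-0.33, -1.05 to 0.39).

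Of the 8 measured complex IV genes, 3 had an interval above the coding median and 0 below it, against 17.8% and 16.1% of all measured coding genes. COX6C, another small membrane subunit, had 123 counts against 39, a relative ratio of 1.41 (0.88 to 1.97). It was the largest difference among the 17 measured genes. COX5B, the zinc-binding subunit on the matrix side (chromosome 2, 97646062 to 97648383), had 113 against 52 (0.88, 0.39 to 1.38). NDUFA4, named as a complex I subunit and since placed in complex IV (chromosome 7, 10931943 to 10940153), had 176 against 89 (0.74, 0.36 to 1.12). COX7B had 45 against 23 at a similar ratio (0.72, -0.03 to 1.52), but its interval reached 0.

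The remaining complex IV genes did not differ beyond counting error. COX8A, the most counted, had 240 against 200 (0.02, -0.26 to 0.30), and COX4I1, the subunit through which ATP regulates the enzyme, had 194 against 149 (0.14, -0.18 to 0.45). COX7A2 had 115 against 92, COX7C had 87 against 60 and COX6A1 had 80 against 77, with ratios of 0.08, 0.29 and -0.19. COX6B1, which faces the intermembrane space, had 45 against 38 and COX5A had 20 against 17. Within complex IV the share of COX6C was 9.94% with the reporter (8.33 to 11.7%) and 4.67% without it (3.34 to 6.32%). That of COX8A was 19.4% (17.2 to 21.7%) and 23.9% (21.1 to 27.0%), with overlapping intervals.

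**Figure D3:**
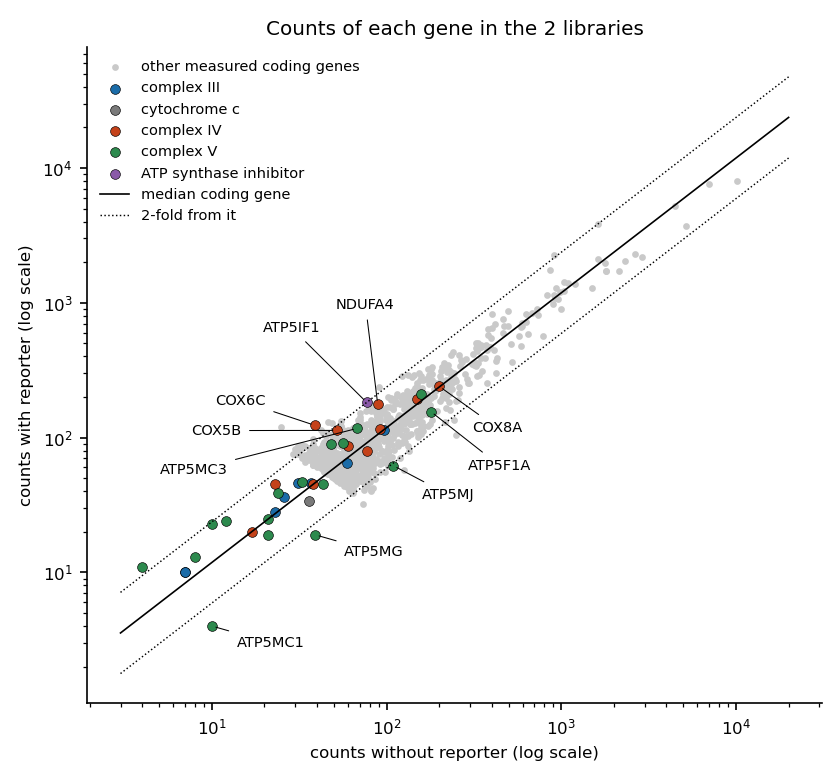
Counts of each gene in the library without (horizontal) and with the reporter (vertical), both axes logarithmic, for the measured coding genes (grey) and the listed genes with a count in both libraries (coloured). The solid line is the median coding gene and dotted lines are 2-fold from it; COX6C lies above the upper one, at 123 against 39, and ATP5MJ below the lower one, at 62 against 109.

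Complex V held values on both sides of the coding median. In the F1 head, which carries the catalytic sites, ATP5F1C, the gamma subunit of the rotor (chromosome 10, 7788147 to 7807815), had 90 counts against 48 (0.66, 0.14 to 1.20). ATP5F1A, the alpha subunit (chromosome 18, 46080248 to 46104334), had 156 against 179 and lay below the median (-0.44, -0.76 to -0.12). With total counts as the zero, its value turned to 0.12. ATP5F1B, its catalytic partner in the same ring, had 209 against 157 (0.17, -0.14 to 0.48). The alpha and beta subunits occur in equal number in the enzyme. Their intervals overlapped only between -0.14 and -0.12. ATP5F1D and ATP5F1E, the delta and epsilon subunits of the central stalk, had 24 against 12 and 91 against 56 (0.76 and 0.46), with intervals that reached 0.

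The c ring is made of copies of a single mature protein that the genes ATP5MC1, ATP5MC2 and ATP5MC3 all encode, with different import sequences. ATP5MC3 (chromosome 2, 175176258 to 175181710) had 117 counts against 68 (0.54, 0.10 to 0.99). ATP5MC2 had 19 against 21 and ATP5MC1 had 4 against 10, at -0.39 (-1.36 to 0.58) and -1.57 (-3.69 to 0.23). ATP5MC3 thus held 83.6% of the c subunit counts with the reporter (76.4 to 89.3%) and 68.7% without it (58.6 to 77.6%). These intervals overlap narrowly.

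The peripheral stalk, which keeps the head from turning, comprises ATP5PB, ATP5PD, ATP5PF and ATP5PO. These had 47 against 33, 45 against 43, 23 against 10 and 13 against 8 counts. The intervals of all 4 reached 0, and the highest ratio was that of ATP5PF (0.96, -0.17 to 2.19).

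Accessory subunits of the membrane part, some of which join ATP synthases into dimers, included the lowest ratios among complex V genes with 20 or more summed counts. ATP5MJ (chromosome 14, 103912288 to 103928269) had 62 counts against 109 (-1.06, -1.53 to -0.60). Its 2-fold call was lost with TMM, DESeq2 or total-count scaling as the zero, although the value stayed below 0 with each. ATP5MG (chromosome 11, 118401346 to 118433278) had 19 against 39 (-1.28, -2.16 to -0.46) below the minimum of 100. In contrast, ATP5ME had 39 against 24, ATP5MF 11 against 4 and ATP5MK 25 against 21, none with an interval apart from 0. ATP5MJ made up 6.24% of complex V counts with the reporter (4.82 to 7.93%) and 12.9% without it (10.8 to 15.4%).

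ATP5IF1, the inhibitor that blocks ATP hydrolysis by complex V when the membrane potential fails, had 182 counts against 77 (chromosome 1, 28236109 to 28246906). Its relative ratio was 0.997 (0.605 to 1.40), just short of 2-fold, and it was called higher with TMM scaling as the zero. The nearest call inside the threshold was ATP5MJ and the nearest value outside it was that of ATP5IF1.

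A lower minimum, a summed count of 20, brought in 34 of the 39 genes, with the zero unchanged. At this minimum 1 gene was called higher (background 4.81%) and 2 lower (background 8.05%), the second being ATP5MG. Of the 34, 23 had a value above the coding median, against 46.4% of the 6296 coding genes that reached this minimum. Intervals above it numbered 6 of 34, the same genes as before (background 8.91%). Intervals below it numbered 3 of 34 (background 12.7%), with ATP5MG added. The 5 genes below 20 counts were UQCRFS1, UQCR10, UQCR11, ATP5MC1 and ATP5MF.

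Set side by side, the complexes differed most between IV and V in their pooled counts. Complex IV had 1238 counts against 836, a pooled log2 ratio against all nuclear-encoded coding counts of 0.35 (0.22 to 0.48). Complex III had 363 against 287 (0.12, -0.10 to 0.35) and complex V had 994 against 842 (0.02, -0.11 to 0.16). This denominator puts 0 at 0.03 below the coding median. Complex IV exceeded complex V by 0.33 (0.14 to 0.51) and complex III by 0.23 (-0.04 to 0.49), and complex III exceeded complex V by 0.10 (-0.17 to 0.37). Only the first of these 3 differences was larger than counting error.

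Medians over measured genes ordered the complexes differently: 0.31 for complex V over 6 genes, 0.21 for complex IV over 8 and -0.06 for complex III over only 2. The mean over the same genes was 0.054 for complex V and 0.42 for complex IV, with ATP5MJ the lowest gene of the first and COX6C the highest of the second. At a minimum of 200 counts the medians were -0.16 for complex V and 0.08 for complex IV. Which of the 2 complexes had the higher median thus depended on the genes included. Without COX6C, a choice made after seeing the data, the pooled ratio of complex IV was 0.27, and without ATP5MJ that of complex V was 0.13.

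Within complex V, the pooled ratio of the 5 membrane accessory genes was -0.55 (-0.86 to -0.24), with 156 counts against 197. The F1 head (570 against 452), the c subunits (140 against 99) and the peripheral stalk (128 against 94) were at 0.12, 0.28 and 0.23, each with an interval that included 0. Of the 5 accessory genes, ATP5MJ and ATP5MG lay below the coding median and the other 3 did not.

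**Figure D4:**
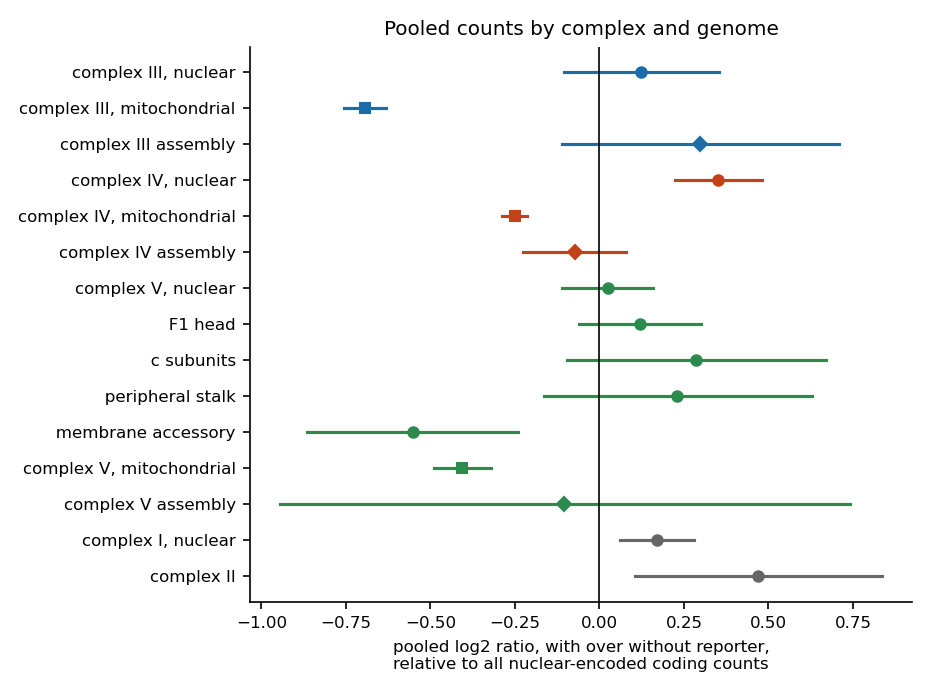
Pooled log2 ratio of counts, with over without the reporter, relative to all nuclear-encoded coding counts, with exact 95% intervals for counting error; circles are nuclear-encoded subunits, squares mitochondrially encoded subunits and diamonds assembly factors. Nuclear complex IV lies at 0.35, and the mitochondrially encoded genes of all 3 complexes lie below 0.

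In pooled counts, the partners encoded in mitochondrial DNA lay below the nuclear subunits in each complex. On the same pooled scale MT-CYB of complex III was at -0.69, MT-CO1 to MT-CO3 of complex IV at -0.25, and MT-ATP6 and MT-ATP8 of complex V at -0.41. The pooled nuclear genes exceeded them by 0.82 (0.58 to 1.05), 0.60 (0.47 to 0.74) and 0.43 (0.27 to 0.59). Single genes overlapped: in relative ratio, COX6A1 of complex IV lay below MT-CO2. Among complex V genes with 20 or more summed counts, ATP5F1A, ATP5MG and ATP5MJ lay below MT-ATP6, and the others did not. Cycloheximide arrests cytosolic ribosomes and not mitochondrial ones, and the part of this in the pooled differences was not tested.

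Other genes of the pathway were read from lists of symbols. The 37 nuclear complex I subunits had 1599 counts against 1224, a pooled ratio of 0.17 (0.06 to 0.28). Of 10 measured, 3 had an interval above the coding median and 2 below it, against 17.8% and 16.1% of all measured coding genes. Their ratios ran from NDUFS7 at -0.90 to NDUFA1 at 0.94. Complex IV exceeded complex I by 0.18 (0.01 to 0.35), while complexes III and V differed from it by -0.05 (-0.30 to 0.21) and -0.15 (-0.32 to 0.03). Complex II had 167 against 104 (0.47, 0.11 to 0.84). Of these, 135 and 69 were counts of its iron-sulfur subunit SDHB, the measured member, at 0.72. Its genes went both ways: of 3 with a summed count of 20 or more, 2 had an interval above the coding median and 1 below it. The shares over all coding genes at this minimum were 8.91% and 12.7%.

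Pooled counts of assembly factors, which insert cofactors or join subunits, did not differ from all nuclear-encoded coding counts beyond counting error. Single factors with a summed count of 20 or more went both ways. For complex IV, 1 of 14 had an interval above the coding median and 2 below it. For complex III, 0 of 4 lay above and 1 below, where 8.91% and 12.7% of coding genes did. The 30 genes for complex IV assembly had 744 counts against 674 (-0.07, -0.22 to 0.08). The measured ones were LRPPRC at 0.25 and its partner SLIRP, which stabilises mitochondrial mRNA, at -0.38 (-0.64 to -0.12). Assembly factors of complex III had 124 against 87 (0.30, -0.11 to 0.71) and those of complex V had 27 against 25. The carriers of ADP, ATP and phosphate, which supply complex V, had 456 against 382 (0.04, -0.16 to 0.24), from SLC25A3 at -0.13 to SLC25A5 at 0.29. Regulators of nuclear respiratory genes had 284 against 267 (-0.13, -0.37 to 0.12), with YY1 at -0.30 and PPRC1 at -0.02 as the measured members.

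Tissue isoforms and paralogs of the subunits were nearly empty. Of 11 such genes, 6 had 0 counts in both libraries: COX4I2, COX6A2, COX6B2, COX7B2, COX8C and ATP5MGL. COX7A1, the heart and muscle isoform, had 0 against 2. COX7A2L, a factor that joins complexes III and IV, had 3 counts against 20 (-2.98, -5.37 to -1.23). UQCRHL, a close copy of UQCRH, had 1 against 10 (-3.57, -9.01 to -0.75), and reads of the pair may be split between them.

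Processed copies took almost no counts. The table lists 147 pseudogene rows named after 29 of the genes, 41 of them after CYCS and 17 after COX6C. Only 6 of these rows had a count, 2 counts with the reporter and 8 without it in all. The treatment of reads with several matches is, in the sources used here, not given, so values of genes with many copies remain uncertain.

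Neighbouring genes could share reads with some members. The loci of 23 genes overlapped another row, and 12 overlapped an opposite-strand row with a count, among them COX6C with VPS13B (24 against 16 counts). Without a statement on strand, reads of such pairs cannot be told apart. Small RNA genes lay within 5 loci, of which only SNORD59A in ATP5F1B had counts (98 against 111). COX5B, NDUFA4, ATP5F1C, ATP5F1A and ATP5MJ overlapped no other row. Without the genes whose loci hold a small RNA gene, the median of complex V was 0.0068 and that of complex IV was 0.14.

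Gene length also moved with the ratio. Across the 1060 measured coding genes the Spearman correlation of listed length and ratio was -0.17, a description across genes. The 212 shortest, from 207 to 2861 bases, had a median of 0.09 and the 212 longest, from 9526 to 118976, had -0.14. The measured genes of the list were short, with a median length of 2308 against 5364.5 bases, and 10 of 17 were among the 212 shortest. With the length trend removed, the medians were -0.06, 0.17 and 0.27 for complexes III, IV and V. With it removed, 6 of 17 genes had intervals above the median, against 183 of all 1060. In each direction 1 of the 17 was called, against 18 higher and 15 lower of all 1060. Within the 17 genes the correlation of length and ratio was -0.04.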

How the data were processed

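Raw counts per gene were used as deposited by the authors. Per the submitters' processing notes, which give no roles, TopHat2 2.0.12, HTSeq 0.9.1, GRCh37 and hg19 were used. Strand use and multi-mapping are not given in the sources used here. The listed coordinates are printed as given and overlapped the RefSeq GRCh38.p14 locus for 38 of the 39 genes. RPKM values deposited by the authors, per listed gene length, were used for levels between genes.

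For each gene the log2 ratio of counts, with over without the reporter, was taken minus the median of the 1060 coding genes whose counts summed to 100 or more. Clopper-Pearson intervals at 95% were computed for it. Pooled counts of a complex were set against 310156 and 267212 nuclear-encoded coding counts, and differences between complexes have exact conditional odds ratio intervals. Alternatives used edgeR 4.0.16 (TMM) and DESeq2 1.42.0 in R 4.3.3, other minimums and folds, RPKM with 0.1 added, thinning and removal of a length trend. The ratio rule was tested on simulated data. These varied by counting error alone, as the intervals assume, so the test cannot show how the rule fares with differences between cultures. Scripts ran in Python 3.11.15 (pandas 2.3.3, scipy 1.17.1, numpy 2.4.6). All 39 genes could be named, and of other lists the highest and lowest measured gene. The rule for the genes uses symbols alone, but the genes and lists were proposed with earlier results of these data known. Without a matched RNA library, mRNA amount and translation cannot be told apart, nor can fewer cells and less RNA per cell.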

Additional observations from a re-analysis of the deposited data

How the results depend on the processing

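No paired analysis was possible because each group held 1 library. The pooled ratios of complexes III and IV stayed within their intervals under each alternative run. That of complex V was 0.16 without genes with a counted pseudogene. Leaving out single genes gave 0.09 (UQCR10) to 0.18 (UQCRB) for complex III, 0.27 (COX6C) to 0.44 (COX8A) for complex IV and -0.03 (ATP5MC3) to 0.13 (ATP5MJ) for complex V. With total counts as the zero, the medians of complexes III, IV and V were 0.51, 0.78 and 0.88, and ATP5F1A turned to 0.12. With DESeq2 size factors those of IV and V were 0.40 and 0.50. As means over genes they were 0.42 and 0.054. The median of complex III was 0.27 with no minimum. That of complex V was -0.16 at a minimum of 200 (complex IV 0.08) and 0.0068 without hosts of small RNA genes (complex IV 0.14). Another zero moves every gene alike, and the cause of the other shifts was not tested.

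Of the 1 gene called higher and 1 called lower, TMM gave 2 and 0, DESeq2 size factors 3 and 0, and total counts 7 and 0. A minimum of 20, with the zero recomputed, gave 2 and 2 of 34 (343 and 468 of all 6296 coding genes), and one of 200 gave 0 and 0 of 8 (2 and 4 of 392). With no minimum 2 of 38 were higher, against 585 of the 11213 coding genes with a count in both libraries. After thinning 2 of 17 were higher, against 21 of 969. At 1.5-fold 5 of 17 were higher, and at 3-fold 0 were higher and 0 lower. The share over all coding genes was not computed at these folds, so their counts have no background. In the main setting 6 of 17 had an interval above the coding median. With total counts as the zero, 13 of 17 had an interval above that zero (657 of all 1060). At a minimum of 200, 2 of 8 had one above the coding median (96 of 392). Depth limits the 22 genes below 100 summed counts, of which ATP5MG alone had an interval apart from the coding median at a minimum of 20 with the zero unchanged.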
